A study of Mus musculus with 7 samples.

Results

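The calcitonin receptor family and its accessory proteins comprise 5 genes: the receptors Calcr and Calcrl and the receptor activity modifying proteins Ramp1, Ramp2 and Ramp3. They were taken as every probe whose RefSeq transcript belongs to 1 of these symbols, which gave 8 probes of the 24844 that carried a gene symbol, and 5 of 17178 named genes. The family was selected on measured values, namely because the signal of Calcr had differed between the groups in these same arrays, so their group differences are given as a description, without p-values. The single count of members called stands beside the share over all genes, and nothing is read from it. Messenger RNA was measured in ganglionic eminences and septum (subpallium) dissected at E12.5 from female embryos of the CD-1 mouse strain, and each 1-colour Agilent array held 1 embryo. The 3 embryos labelled Otx2 cKO carried a floxed Otx2 allele recombined by RxCre, a Cre line that acts through most of the forebrain but spares a caudal dorsomedial domain that includes cortical hem and choroid plexus. The 4 others were labelled Control, and their alleles are not given in the sources used here. Litter 2 gave cKO replicates 1 and 3 and control replicates 2 and 3, and the remaining embryos came from 3 other litters. Slide 1 held cKO replicate 1 and control replicates 1 and 2, and slide 2 held the other 4 arrays.

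Calcr and Calcrl are class B G protein-coupled receptors. Calcr alone binds calcitonin, a hormone of calcium balance, and together with a Ramp it forms receptors for amylin. Calcrl needs a Ramp to reach the cell surface: with Ramp1 it binds calcitonin gene-related peptide (CGRP), and with Ramp2 or Ramp3 it binds adrenomedullin. The pair of Calcrl and Ramp2 is best known from endothelial cells, where adrenomedullin signalling is needed for vessels to form, while Calcr is known in the brain from hypothalamic and brainstem neurons.

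Markers of the labelled tissue were present, while the Otx2 signal was higher in arrays labelled Otx2 cKO. All 12 subpallial markers, among them Dlx1, Dlx2, Gad1 and Nkx2-1, were well above background on all 7 arrays, as were 5 of 7 septal markers, Six3 included. Of 5 choroid plexus markers on the array, Ttr, the defining one, was well above background on 0 of 7 arrays, Kl on 3, and Prlr, Folr1 and Clic6 on all 7. Their summed signal was 17.1% to 22.3% of the array's 75th percentile in arrays labelled Otx2 cKO and 16.5% to 24.0% in controls, and 0 of the 4 tested were called (limma; 0 at an unadjusted p under 0.05). The signal of Otx2 itself was 330% to 475% of the array's 75th percentile in arrays labelled Otx2 cKO, against 109% to 141% in controls. The log2 difference was 1.52 with an SE of 0.17 over 3 and 4 arrays (limma, adjusted p = 0.0288). All 3 arrays labelled Otx2 cKO lay above all 4 controls. The call was lost with slide as a block (adjusted p = 0.0638), with litter as a block (0.296), with no filter on dim probes (0.0765) and on leaving out any 1 array (0.0536 to 0.137), while the direction held in each. The sources used here do not say whether its probe lies in the deleted part, and every direction below rests on the labels. Well above background were 68.4% to 72.2% of an array's spots, and none was saturated. Precision is limited by how few arrays there are.

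Calcr, the calcitonin receptor, was the member that set the groups apart. On its probe A_52_P469789 the signal was 114%, 116% and 117% of the array's 75th percentile in cKO replicates 1 to 3, against 52.1%, 58.9%, 58.5% and 61.4% in control replicates 1 to 4. The 3 arrays labelled Otx2 cKO lay close together and above all 4 controls, and the probe was well above background on every array. On the log2 scale relative to that percentile the mean was 0.21 ± 0.016 in arrays labelled Otx2 cKO and -0.80 ± 0.10 in controls (SD, n = 3 and 4). The difference was 1.01 ± 0.081 (limma SE), a 2.01-fold higher signal, and the gap between the lowest cKO-labelled array and the highest control was 0.90. Slide 1 alone gave 1.04 and slide 2 alone 0.96, the litter 2 embryos gave 0.98, and the fit with slide as a block gave 0.99. Slide 1 holds a single cKO-labelled array, so its value has no spread for that label.

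The second Calcr probe, A_52_P554768, carries the same transcript accession and lay near the floor of the measurement. Its processed signal was 23.9, 13.7 and 22.8 intensity units in cKO replicates 1 to 3, against 24.9, 21.0, -2.60 and 16.5 in control replicates 1 to 4. The groups overlapped, and the probe was well above background on 2 of 3 cKO-labelled arrays and 3 of 4 controls. The log2 mean was -6.67 ± 0.57 in arrays labelled Otx2 cKO and -6.95 ± 0.41 in controls (SD, n = 3 and 4), where 1 control value was set to the floor of -7.49. The difference of 0.28 was smaller than the spread within either group, so the size of the Calcr difference rests on 1 probe. With the mean of both probes it was 0.64.

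RefSeq places the start of Calcr at 2 sites on chromosome 6, and the 250 bases before each are shown because Calcr is the member that differed in the Otx2 comparison. The sequences are from RefSeq on GRCm38.p6 (minus strand, 5′ to 3′). Capitals would mark TAATCC, the core that OTX-type homeodomain proteins recognise, searched on both strands.
Calcr, downstream start, chr6:3763624-3763873: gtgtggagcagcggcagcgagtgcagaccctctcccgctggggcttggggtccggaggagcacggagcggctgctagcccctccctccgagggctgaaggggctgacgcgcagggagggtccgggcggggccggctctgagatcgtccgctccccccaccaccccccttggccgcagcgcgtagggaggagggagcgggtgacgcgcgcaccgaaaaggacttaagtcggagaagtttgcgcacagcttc
Calcr, upstream start, chr6:3764714-3764963: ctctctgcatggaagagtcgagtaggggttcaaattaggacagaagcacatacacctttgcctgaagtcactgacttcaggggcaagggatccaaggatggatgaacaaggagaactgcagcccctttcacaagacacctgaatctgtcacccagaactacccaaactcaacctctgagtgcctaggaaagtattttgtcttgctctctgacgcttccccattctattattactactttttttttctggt
Neither window held these letters, and 6.25% of 32851 promoter windows of the same length did. The windows of Calcrl, Ramp1 and Ramp3 did not hold them either, and no window was available for Ramp2. The window of the downstream start was 70.8% G and C, and that of the upstream start 46.0%. Binding was not measured here, and the absence of a match says only that these letters are not in these windows.

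Among all genes, 12 were called higher and 16 lower in arrays labelled Otx2 cKO (limma, adjusted p under 0.05). By unadjusted p under 0.05, 573 were higher and 905 lower of the 13350 tested. Of the 5 members 1 was called, Calcr, which was higher; the share called higher among the 13350 genes tested was 0.0899%. Calcr was also the only member whose cKO-labelled arrays all lay beyond the controls; 5.45% of all genes had every cKO-labelled array above every control and 7.26% had every one below. The family was picked for Calcr, so these counts support nothing. The median difference of the 5 members was -0.02, beside 0.02 for all genes tested.

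**Figure D1:**
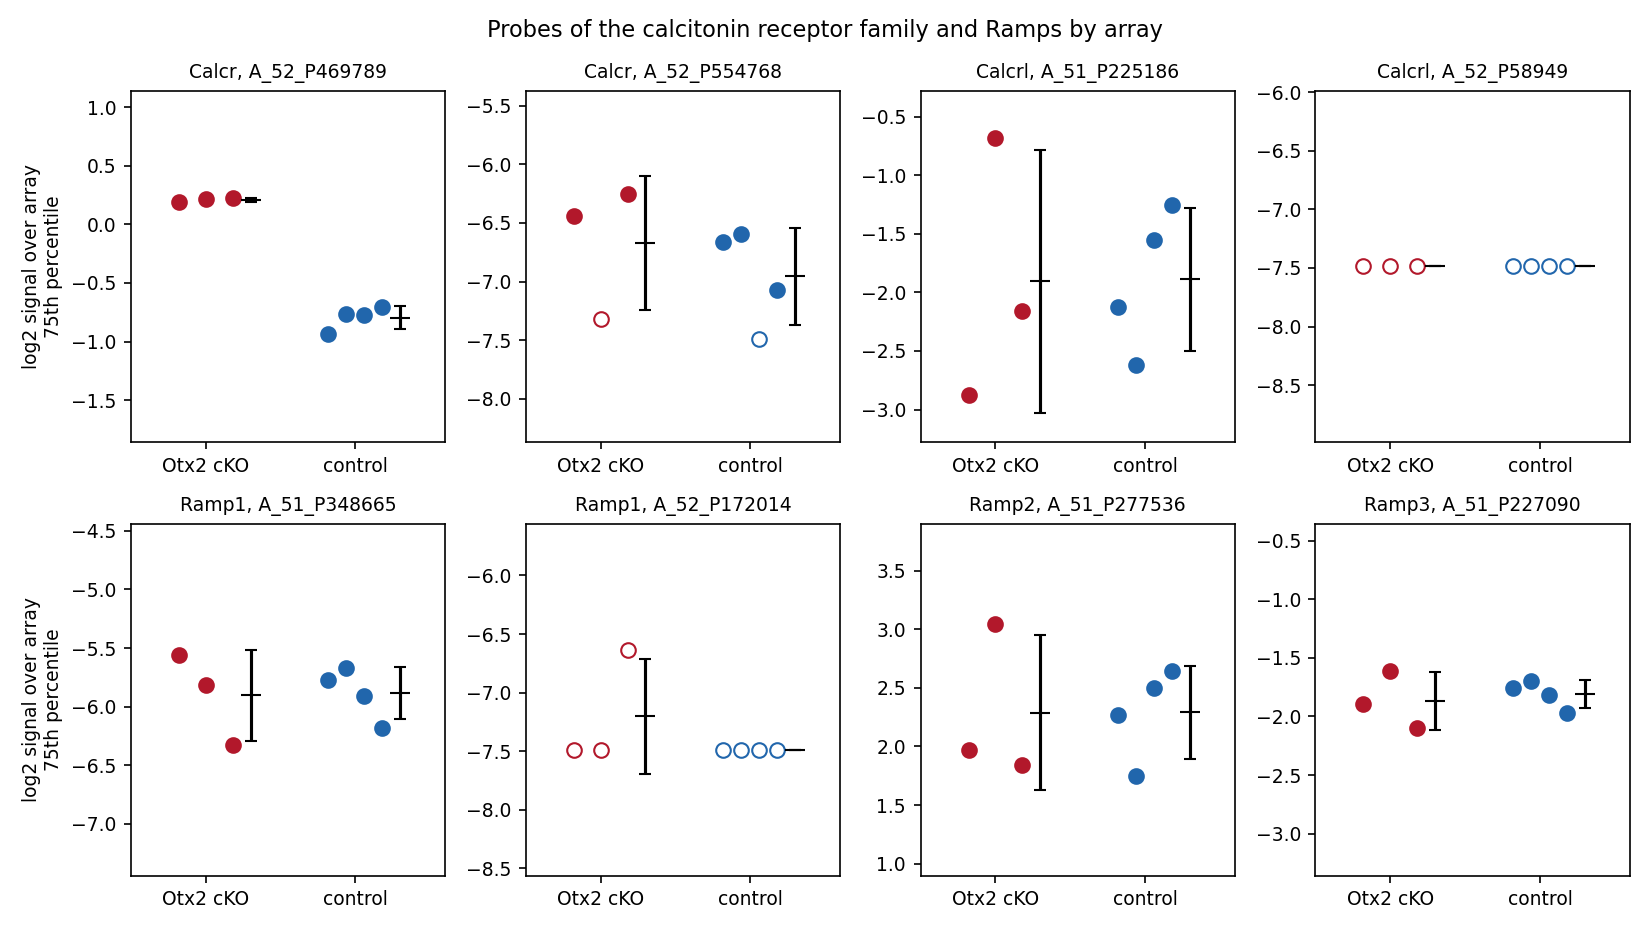
Log2 signal relative to the array's 75th percentile (vertical axis) for each of the 8 probes, by array, for Otx2 cKO (n = 3) and control (n = 4); filled points are well above background, open points are not, and bars give mean ± SD. Calcr probe A_52_P469789 separates the groups by 0.90, while the groups overlap for its second probe, for Calcrl, for each measured Ramp probe and at the floor.

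Calcrl, the CGRP and adrenomedullin receptor, varied widely between embryos of both groups. Its probe A_51_P225186 gave 13.6%, 62.5% and 22.3% of the 75th percentile in cKO replicates 1 to 3, against 23.0%, 16.2%, 34.0% and 41.9% in control replicates 1 to 4. The highest and the lowest of the 7 values were both cKO-labelled arrays, so the control values lay inside the cKO range. The log2 means were -1.91 ± 1.12 in arrays labelled Otx2 cKO and -1.89 ± 0.61 in controls (SD, n = 3 and 4), a difference of -0.02 ± 0.56 (SE). The other Calcrl probe, A_52_P58949, was well above background on 0 of 7 arrays and gives no comparison. The Calcrl difference was 0.47 without cKO replicate 1 and -0.63 without cKO replicate 2.

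Ramp2, the partner that turns Calcrl into an adrenomedullin receptor, followed nearly the same order of embryos. It gave 393%, 826% and 358% of the 75th percentile in cKO replicates 1 to 3, against 482%, 336%, 564% and 626% in control replicates 1 to 4. The groups overlapped, with log2 means of 2.29 ± 0.66 in arrays labelled Otx2 cKO and 2.29 ± 0.39 in controls (SD, n = 3 and 4) and a difference of -0.003 ± 0.34 (SE). For both genes cKO replicate 2 was highest, followed by control replicates 4, 3 and 1. The 3 lowest arrays of both genes were cKO replicates 1 and 3 and control replicate 2, in a different order for each. Without cKO replicate 2 the Ramp2 difference was -0.38.

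The arrays high in Calcrl and Ramp2 were those high in endothelial transcripts. The median of 11 endothelial markers, each relative to its own mean over the arrays, was -0.35, 0.64 and -0.55 in cKO replicates 1 to 3, against 0.23, -0.36, 0.24 and 0.26 in control replicates 1 to 4. The 4 arrays with the highest medians were the 4 with the highest Calcrl and Ramp2, in the same order for all 3 measures. The 3 control medians among them lay close together, at 0.23 to 0.26. Among the 3 low arrays the order differed. There Calcrl was highest in cKO replicate 3 and lowest in cKO replicate 1, the reverse of the endothelial median. All 12 endothelial markers, Pecam1 and Cdh5 included, were well above background on every array, and 0 of 12 were called between the groups (limma; 0 at an unadjusted p under 0.05). Their summed signal ran from 765% to 1806% of the 75th percentile in arrays labelled Otx2 cKO and from 841% to 1359% in controls, over the 11 markers with a value on every array.

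Pericyte and mesenchyme markers and microglia and macrophage markers divided the arrays in the same way. The median of 9 pericyte and mesenchyme markers was -1.05, 1.58 and -0.65 in cKO replicates 1 to 3, against 0.41, -1.16, 0.34 and 0.70 in control replicates 1 to 4, with the same 3 arrays low and the same 4 high. The summed signal of these markers was 406% to 2847% of the 75th percentile in arrays labelled Otx2 cKO and 385% to 1529% in controls, and 0 of 10 were called (limma; 0 at an unadjusted p under 0.05). The median of 8 microglia and macrophage markers was -0.29, 0.66 and -0.44 in cKO replicates 1 to 3, against 0.24, -0.41, 0.06 and 0.14 in control replicates 1 to 4, again with those 3 arrays low and those 4 high. Their summed signal was 228% to 483% in arrays labelled Otx2 cKO and 228% to 353% in controls, and 0 of 8 were called (limma; 0 at an unadjusted p under 0.05). The part of these cell types in the Calcrl and Ramp2 values was not tested. In bulk tissue fewer cells of a type and less RNA per cell cannot be told apart.

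**Figure D2:**
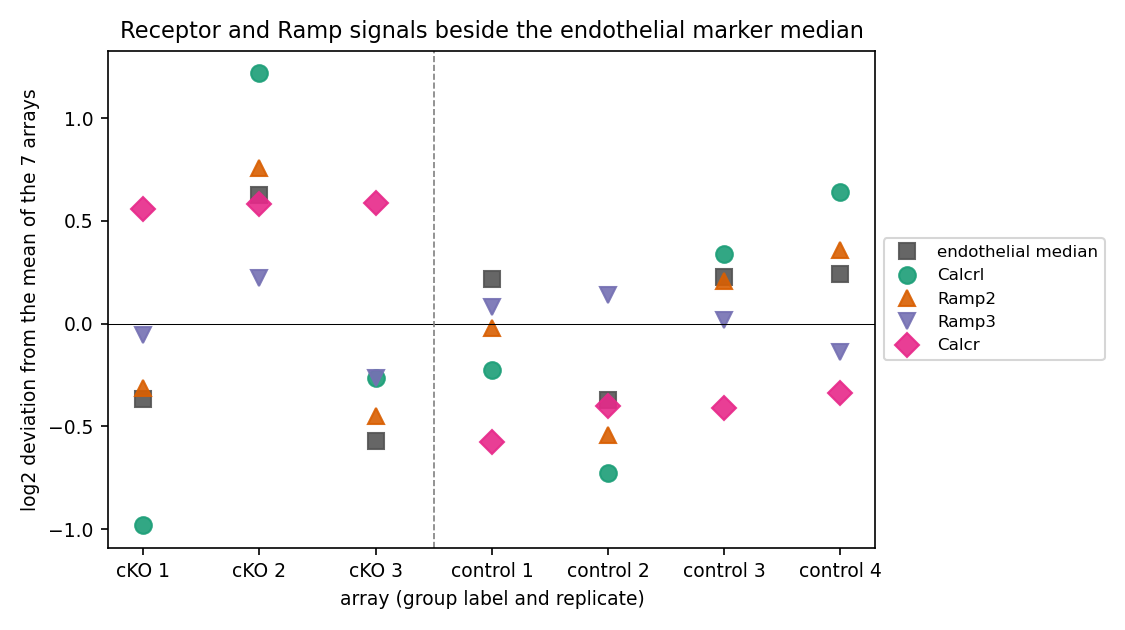
Log2 signal of Calcrl, Ramp2, Ramp3 and Calcr, and the median of 11 endothelial markers, as deviation from the mean of the 7 arrays (vertical axis), for each array (horizontal axis; cKO-labelled left of the dashed line, control right). Calcrl, Ramp2 and the endothelial median are highest together in cKO replicate 2 and low together in cKO replicates 1 and 3 and control replicate 2, while Calcr divides by group label.

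The 250 bases before the start of Calcrl on chromosome 2 are shown because this gene was high on the arrays high in endothelial markers. Its likeness was not particular to them. The median r over the 7 arrays was 0.83 with 11 endothelial markers and 0.82 with 7 pericyte and mesenchyme markers. The sequence is from RefSeq on GRCm38.p6 (minus strand, 5′ to 3′), and capitals mark ACAGGAAG, the core of the consensus of the endothelial ETS factor ERG, searched on both strands.
Calcrl, chr2:84425267-84425516: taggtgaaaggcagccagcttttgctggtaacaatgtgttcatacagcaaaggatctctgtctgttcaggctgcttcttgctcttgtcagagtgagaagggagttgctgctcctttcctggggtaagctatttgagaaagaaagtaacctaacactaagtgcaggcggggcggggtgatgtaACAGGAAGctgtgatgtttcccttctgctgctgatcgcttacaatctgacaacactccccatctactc
The window held 1 match, which begins 68 bases before the start. Both this motif and TAATCC were chosen after the sequences had been seen, and 2.90% of the 32851 windows held it. The windows of both Calcr starts, Ramp1 and Ramp3 did not, and Ramp2 had no window to search. The match is a description of the letters and not evidence that a factor binds there.

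Ramp3, the other partner for adrenomedullin binding, varied little. It gave 27.0%, 32.7% and 23.3% of the 75th percentile in cKO replicates 1 to 3, against 29.6%, 30.9%, 28.3% and 25.4% in control replicates 1 to 4. The groups overlapped, with cKO replicates holding both the highest and the lowest value. The log2 means were -1.87 ± 0.24 in arrays labelled Otx2 cKO and -1.81 ± 0.12 in controls (SD, n = 3 and 4), a difference of -0.06 ± 0.13 (SE). Within litter 2 it was -0.24. Its range over the 7 arrays was narrower than that of Ramp2, and control replicate 2, low in Ramp2 and in endothelial markers, was among the highest for Ramp3.

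Ramp1, the partner that gives Calcrl its affinity for CGRP, was detected at a low signal. Its probe A_51_P348665 was well above background on all 7 arrays at 2.12%, 1.77% and 1.25% of the 75th percentile in cKO replicates 1 to 3, against 1.83%, 1.97%, 1.66% and 1.38% in control replicates 1 to 4. The groups overlapped. The log2 means were -5.90 ± 0.39 in arrays labelled Otx2 cKO and -5.88 ± 0.22 in controls (SD, n = 3 and 4), a difference of -0.02 ± 0.21 (SE). The second Ramp1 probe, A_52_P172014, was well above background on 0 of 7 arrays.

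For each member the 4 genes with the most similar pattern were ranked by Pearson's r over the 7 arrays, among 11658 genes well above background on all of them. These r values are a description, since the highest of many over 7 points are high by selection and the arrays share slides and litters. Kdr, the VEGF receptor of endothelial cells, was first for Ramp2 (r = 0.992), followed by Nod1, Smagp and Pf4 (0.987 to 0.991). For Calcrl they were Rasgrp3, Sh3tc2, Man1a and Slc25a45 (0.985 to 0.994). For Ramp3 they were Clcn2, Pram1, Ltbp4 and Nradd (0.959 to 0.994), and for Ramp1 Stard10, Alg1, Naa10 and Tiparp (0.942 to 0.947). No gene was shared between these lists.

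The genes most like Calcr were Crlf3 (r = 0.997), Hmx2 (0.987), Metap1d (0.987) and Nubpl (0.985). Since Calcr divides the groups, genes picked for their likeness to it divide them too, and their differences are given without a test. The difference was 1.73 ± 0.17 for Hmx2, a homeobox gene of the hypothalamus and inner ear, and 1.26 ± 0.13 for Metap1d (SE, n = 3 and 4). Crlf3 and Nubpl differed by 0.21 ± 0.063 and 0.21 ± 0.064.

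Of 9 hypothalamic markers 7 were tested. The list was chosen with earlier results of these data known, so nothing is read from its counts. By unadjusted p under 0.05, 3 were higher and none lower (limma), beside 573 higher and 905 lower of the 13350 genes tested. By adjusted p 2 were called higher, beside 0.0899% called higher among all genes tested. These were Hmx2 (adjusted p = 0.0246) and Hmx3, a related homeobox gene that differed by 2.13 ± 0.23 (SE, n = 3 and 4; adjusted p = 0.0288). Sim1, Pomc, Nr5a1, Nkx2-4 and Foxb1 did not pass, with differences of 1.66, 0.05, 0.57, 0.30 and -0.54, and Otp was well above background on 0 of 7 arrays. The summed signal of 8 markers was 395% to 513% of the 75th percentile in arrays labelled Otx2 cKO and 184% to 282% in controls. Without Hmx2 and Hmx3 it was 180% to 191% in arrays labelled Otx2 cKO and 136% to 213% in controls, so the groups overlapped. That sum is mostly Pomc, with log2 means of 0.79 in arrays labelled Otx2 cKO and 0.75 in controls. The other tested genes in it had means of -4.92 or lower, so it says little about them. Sim1 had every cKO-labelled array above every control, but was well above background on only 2 of 4 controls.

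Of 12 subpallial markers 1 was called, the forebrain homeobox gene Lhx8, beside 0.12% called lower among all genes tested. It fell by 2.03 ± 0.17 on the log2 scale (SE, n = 3 and 4, limma adjusted p = 0.0169). By unadjusted p under 0.05, 0 of the 12 were higher and 4 lower (limma), beside 573 higher and 905 lower of the 13350 genes tested. A negative difference was found for 10 of the 12, beside 6119 of all 13350. This list too was chosen with earlier results of these data known, so nothing is read from its counts. The summed signal of 10 subpallial markers was 3397% to 3691% in arrays labelled Otx2 cKO and 4507% to 5503% in controls. These sums leave out Dlx1 and Dlx2, each without a value on 1 cKO-labelled array. Dlx2 was bright and overlapped between the groups, at 4.25 and 4.34 (log2) in cKO replicates 2 and 3, against 4.10 to 4.62 in controls. The sums therefore do not stand for all 12 markers. Without Lhx8 alone the sum of the remaining 9 was 3206% to 3406% in arrays labelled Otx2 cKO and 3619% to 4453% in controls. The groups stayed apart over these 9. Without Lhx8 and Lhx6, a related gene with a difference of -1.18 that did not pass (adjusted p = 0.0516), the sum was 2852% to 3048% in arrays labelled Otx2 cKO and 2801% to 3582% in controls, and the groups overlapped. The part of either marker list in the Calcr difference was not tested.

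The ligands of these receptors were measured in part. Of 5 ligand genes 2 were tested and 0 were called (limma; 0 at an unadjusted p under 0.05). Calca, which encodes calcitonin and CGRP, had log2 signals of -2.14, -1.38 and -1.68 in cKO replicates 1 to 3, against -2.25, -1.71, -1.40 and -1.78 in control replicates 1 to 4, and the difference was 0.05 ± 0.25 (SE, n = 3 and 4; limma adjusted p = 0.959). Adm, which encodes adrenomedullin, had log2 signals of -3.38, -2.81 and -3.10 in cKO replicates 1 to 3, against -3.44, -3.41, -2.84 and -3.07 in control replicates 1 to 4, a difference of 0.09 ± 0.20 (adjusted p = 0.894). The groups overlapped for both ligands, and for Adm, as for Calcrl and Ramp2, cKO replicate 2 was the highest array. Calcb, the second CGRP gene, was well above background on 0 of 3 cKO-labelled arrays and 1 of 4 controls, Adm2 on 0 of 7, and Iapp, the amylin gene, had no named probe.

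Downstream of the receptors, which raise cyclic AMP through Gs, 23 signalling genes were listed: adenylyl cyclases, protein kinase A subunits, arrestins, the receptor component protein Crcp and related genes. Of the 21 tested 0 were called (limma). By unadjusted p under 0.05, 0 were higher and 2 lower, beside 573 higher and 905 lower of the 13350 genes tested. A negative difference was found for 17 of the 21, beside 6119 of all 13350. The median was -0.12, beside 0.02 for all genes. The smallest p values belonged to Adcy1, a neuronal adenylyl cyclase, at -0.53 ± 0.17 (SE, n = 3 and 4; adjusted p = 0.347), and to Prkar1b, a neuronal regulatory subunit of protein kinase A, at -0.61 ± 0.20 (adjusted p = 0.350). The summed signal of 6 neuronal markers was 15849% to 17983% of the 75th percentile in arrays labelled Otx2 cKO and 18608% to 20807% in controls, and its part in these values was not tested. Every Adcy1 value in arrays labelled Otx2 cKO lay below the controls, whereas Prkar1b overlapped.

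Of 13 other class B receptor genes, 7 were tested and 0 were called (limma). By unadjusted p under 0.05, 0 were higher and 3 lower, beside 573 higher and 905 lower of the 13350 genes tested. The median difference of the 7 was -0.25. Crhr1, a receptor for corticotropin-releasing hormone, had log2 signals of -1.95, -2.05 and -2.04 in cKO replicates 1 to 3, against -1.30, -1.46, -1.69 and -1.75 in control replicates 1 to 4. All cKO-labelled arrays lay below the controls, and the difference was -0.46 ± 0.12 (SE, n = 3 and 4; adjusted p = 0.291). Adcyap1r1, the PACAP receptor, differed by -0.47 ± 0.16 (adjusted p = 0.380).

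Calcr lies on chromosome 6 close to a cluster of imprinted genes. The 12 listed neighbours all lay within 14 protein-coding genes of Calcr, on the same side in the RefSeq order. Of these, 9 were tested and 0 were called (limma), with a median of 0.13. By unadjusted p under 0.05, 1 was higher and 1 lower, beside 573 higher and 905 lower of the 13350 genes tested. Sgce, an imprinted sarcoglycan gene, differed by 0.29 ± 0.11 and Asb4 by -0.27 ± 0.099 (SE, n = 3 and 4; adjusted p = 0.395 for each). The imprinted gene Peg10 had a value of -0.20 ± 0.17. Tfpi2 and Gngt1, the 2 nearest on that side, were well above background on 0 of 7 arrays.

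**Figure D3:**
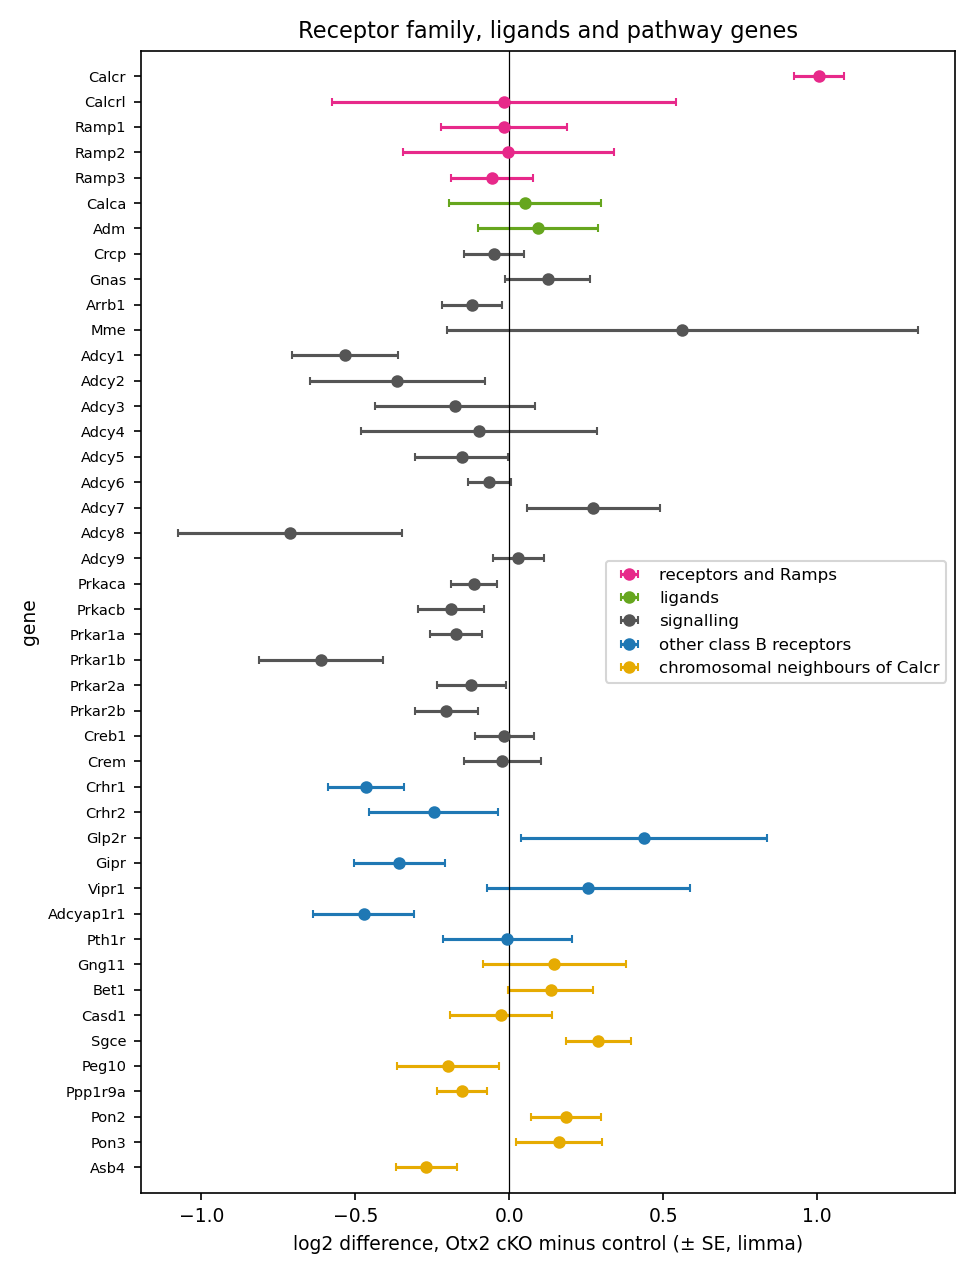
Log2 difference of Otx2 cKO minus control (horizontal axis, ± SE from limma, n = 3 and 4) for the 5 members and for each tested ligand, signalling gene, other class B receptor and neighbour of Calcr (vertical axis). Calcr stands at 1.01, and the other genes lie between -0.71 and 0.56.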

How the data were processed

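RNA was hybridised in Cy3 to whole mouse genome arrays of Agilent, per the labels' protocols. Per the file headers, the deposited processed intensity is a spot's signal after background subtraction and spatial detrending in Feature Extraction 10.7.3.1 (10.5 per the submitters' processing notes), with no normalization between arrays, and the deposited files flag spots well above background, saturated or outlying. The authors also deposited log2 values, used as an alternative. They followed the rank of the median spot signal (rank correlation at least 0.99996) and shared a maximum of 18.8; the column medians were 7.62, 7.62 and 7.64 for cKO replicates 1 to 3 and 7.61, 7.63, 7.61 and 7.62 for control replicates 1 to 4. The sources used here do not give their normalization. The 75th percentile of the processed signal ran from 1741 to 2519 over the arrays. Beside that, the equal maxima and close medians show that the deposited values appear aligned between arrays. They were not centred on 0, and they run with signal.

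Control spots and outlier spots (1.24% to 2.51%) were left out. Processed signals were scaled to each array's 75th percentile, given a floor of -7.49 (log2) and logged. Probes were named through RefSeq accessions of GRCm38.p6. Of the probes, 24844 had 1 symbol and 16330 were left without, including any whose accession belonged to several symbols. A gene was its brightest probe, kept when well above background on at least 3 arrays (13744 of 17178 genes) and tested where enough spots were free of outlier flags (13350). The groups were compared with limma 3.58.1 in R 4.3.3, group as the only term, adjusted by Benjamini-Hochberg over all genes tested. The fit was tested on simulated data. Members and lists were chosen with earlier results of these data known. The text names all members and measured ligands, in each other pathway list the genes called or else the 2 with the smallest p, defining tissue markers, and the 4 genes most like each member; Peg10, Tfpi2, Gngt1, Crcp and the choroid plexus, hypothalamic and Lhx markers were named after their values were seen.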

Additional observations from a re-analysis of the deposited data

Results flagged for a closer look

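Of 46 items checked among the 4 controls, 3 had 1 array far from the rest; chance alone flags about 1 in 20 such groups. The endothelial median was -0.36 in control replicate 2, against 0.23 to 0.26 in the other controls. Calcrl and Ramp2 were also lowest among controls in that embryo. The log2 signal of Nkx2-1 was 2.37 in control replicate 1, and that of Pecam1 was -3.69 in control replicate 4, each apart from the 3 other controls.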

How the results depend on the processing

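The Calcr difference stayed positive in all 22 alternatives, between 0.64 and 1.04, where 0.64 was the mean of both probes. Calcr passed the adjusted threshold in 11 of the 22, so its call was lost in the rest. The family was picked for that call, so this count is a description and supports nothing. Leaving out any 1 array gave 0.96 to 1.04 for Calcr, 0.07 to 0.61 for its second probe, -0.63 to 0.47 for Calcrl, -0.19 to 0.19 for Ramp1, -0.38 to 0.22 for Ramp2, -0.18 to 0.06 for Ramp3 and 1.34 to 1.62 for Otx2. Ramp3 stood at -0.24 both with litter as a block and within litter 2. The Otx2 call was lost at 1.52 with no filter on dim probes, 1.49 with slide as a block, 1.43 on slide 1 alone, 1.54 on slide 2 alone, 1.28 with litter as a block and within litter 2, 1.56 with the replicate block, and on leaving out any 1 array (adjusted p = 0.0536 to 0.137). The pathway lists gave 0 calls in every alternative.

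Over all genes, limma called 7 higher with quantile normalization, 6 with slide as a block, and 4 higher and 7 lower with no filter on dim probes. It called 30 lower with normexp and 26 lower with the authors' value table. It called 0 in either direction within slide 1 (226 higher, 187 lower by unadjusted p under 0.05), within slide 2 (551 and 659), with litter as a block (233 and 592), within litter 2 (230 and 581) and with the replicate block (621 and 870), so the calls of Hmx2, Hmx3 and Lhx8 were lost there too. The block rests only on a shared number: same-numbered arrays correlated at 0.11, -0.53 and 0.03, and none of the 3 cKO-labelled arrays matched its own number best. Leaving out 1 array gave 0 to 7 higher and 0 to 18 lower: 7 and 18 when cKO replicate 1 was left out, 1 and 2 for cKO replicate 2, 4 and 8 for control replicate 1, and 0 without cKO replicate 3 (420 and 455 unadjusted) or control replicates 2, 3 or 4 (555 and 737, 483 and 603, 500 and 962). The cause was not tested.

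The normexp alternative used the median spot signal, since the files used here hold no mean signal. A planned correlation of members with the endothelial median, with its alternatives, was not run as a test, because the arrays fell into 2 separate sets by that median, of 3 and 4 arrays. Probes near the floor (the second probes of Calcr, Calcrl and Ramp1) limit any check between probes.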
